A study of Mus musculus with 10 samples.

Results

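The comparison set cortex of flox/ko Cre+ mice against cortex of flox/wt Cre- mice, 3 libraries against 3, and was taken from a series of 10 libraries. Its members were chosen by genotype label: flox/ko Cre+ libraries 04, 07 and 21 and flox/wt Cre- libraries 08, 22 and 23, numbered as in their titles. All came from C57BL/6 mice aged 3 months. A flox allele of Brap is one that Cre recombinase can delete, ko stands for a deleted allele and wt for a normal one, so all 6 libraries carried 1 flox allele. The flox/ko Cre+ mice had a deleted second allele and Cre, and the flox/wt Cre- mice had a normal second allele and no Cre. Cre, the ko allele and the loss of the flox allele therefore cannot be told apart here. The labels name neither the promoter that drives Cre nor the exons between the lox sites. The controls are described as littermates. The labels do not state that each library came from its own mouse, so p-values reflect only how these libraries vary, which may be technical. The remaining 4 libraries, flox/flox Cre+ 05 and 06 and flox/flox Cre- 09 and 24, were left out of the comparison and serve below as a separate set.

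Brap encodes an E3 ubiquitin ligase first found as a binding partner of BRCA1. It is also known as IMP, because it holds back the scaffold KSR, which brings RAF and MEK together on the way from RAS to ERK. In cortical neurons ERK carries signals from synapses and growth factors to the nucleus, where immediate early genes such as Fos and Egr1 are switched on within minutes. Glial cells of the cortex change their expression after injury or disease: astrocytes raise intermediate filaments, and microglia raise lysosomal and complement genes.

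RNA depleted of ribosomal RNA was sequenced, and 14269 of 14276 genes were tested. The 6 libraries held 19009828 to 28991874 counts, so a gene at 1 CPM (count scaled to a common library total) rested on 19 to 29 counts. The titles hold B1 (08, 04, 07) or B2 (22, 23, 21), a code that the labels do not explain. The first principal component, with 63.2% of the variance, separated the codes, and the second, with 19.5%, put the flox/wt Cre- libraries at 17.1 to 29.4 and the flox/ko Cre+ libraries at -33.7 to -7.6. The code was a term in the model, and because each group has 1 or 2 libraries per code, a single library fixes 1 group within each code. Y-linked genes summed to 260 to 285 CPM in flox/wt Cre- 23 and flox/ko Cre+ 07 and 21 and to at most 0.158 CPM in the other 3, so sex was uneven between the groups. Libraries of 1 group differed beyond sampling noise in every pair, with chi-square per degree of freedom of 9.13 to 75.7.

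**Figure D1:**
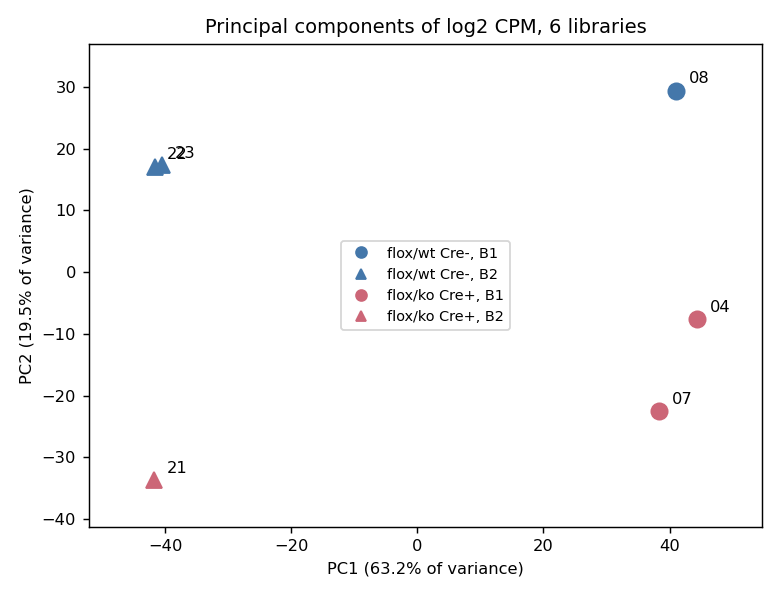
First (x) and second (y) principal components of log2 CPM in the 6 libraries, each with its share of the variance in percent. Colours mark the genotype groups, circles title code B1 and triangles B2: the codes lie apart on x, and every flox/wt Cre- library lies above every flox/ko Cre+ library on y.

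Markers of cortical cells were present at high levels: Slc17a7, the vesicular glutamate transporter of excitatory neurons, at 810.0 to 1170.0 CPM and Gad1, an enzyme of GABA synthesis, at 376 to 702 CPM. Markers of neighbouring tissue were present as well. The choroid plexus gene Ttr ranged from 26.2 to 417 CPM in flox/wt Cre- and 83.9 to 614 CPM in flox/ko Cre+ libraries. The striatal receptor gene Drd1 ranged from 40.3 to 85.1 and from 67.0 to 117 CPM. Blood genes were low, with the 7 listed ones summing to 50.1 to 247 and 38.6 to 60.2 CPM. These are bulk libraries, in which fewer cells of a type and less RNA per cell cannot be told apart.

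Brap was not lower in the libraries labelled flox/ko Cre+. Brap has the identifier ENSMUSG00000029458.14 and runs from 121660563 to 121687256 on the plus strand of chromosome 5 (GRCm38). Its levels were 87.1, 76.9 and 84.3 CPM in flox/wt Cre- 08, 22 and 23, and 110.1, 109.7 and 108 CPM in flox/ko Cre+ 04, 07 and 21. All 3 flox/ko Cre+ libraries lay above all 3 flox/wt Cre- libraries. With means of 109 ± 0.980 and 82.8 ± 5.26 CPM (SD over 3 libraries), Brap differed by 0.38 on the log2 scale (SE 0.07, interval at 95% from 0.22 to 0.54), with an edgeR quasi-likelihood p adjusted by Benjamini-Hochberg of 0.0179. Permuting the 6 Brap values alone (exact test, two-sided, 20 arrangements) gave p = 0.1, which is the smallest that 3 against 3 allows. The rise was not called without the title code or without any 1 of libraries 08, 22, 23 and 21 (adjusted p 0.0885, and 0.05 to 0.154). The table gives 1 count per gene, so a loss of some exons would not show, and the labels were not checked by this value.

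Of the 57 genes within 2 Mb of Brap, 2 rose and 5 fell, or 12.3%, against 9.12% called of all genes tested, and their median log2 difference was -0.04. Those that fell were Camkk2 (-1.08), a kinase upstream of AMPK and CaMKI, Rph3a (-1.02), a Rab3 effector on synaptic vesicles, Rita1 (-0.46), Aldh2 (-0.44) and Ift81 (-0.42). The 2 that rose were Dtx1 (0.39), a Notch pathway ubiquitin ligase, and Fam216a (0.38). Camkk2 measured 320, 279 and 309.7 CPM in flox/wt Cre- 08, 22 and 23 and 168, 156 and 131 CPM in flox/ko Cre+ 04, 07 and 21, with no overlap (SE 0.08, edgeR adjusted p 0.00106). Camkk2 and Rph3a stayed called without any 1 library. The other 5 lost their calls without 3 or more of the libraries in turn (adjusted p 0.054 to 0.28), and Fam216a ran with the code, at 10.1 to 13.1 CPM in B1 and 42.7 to 58.4 in B2.

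Over all genes 1301 (9.12%) were called, meaning an adjusted p under 0.05: 573 higher (4.02%) and 728 lower (5.1%) in flox/ko Cre+. Differences over 2-fold were found in 126 genes that were higher and 125 that were lower, and the median size among called genes was 0.58 on the log2 scale. The groups did not overlap for 443 higher and 598 lower genes, a separation seen in 21.2% of all genes tested. All 1301 had the same direction within B1 and within B2, as the choice of called genes favours. The count rested on the model: 103 genes were called without the code (0.722%) and 391 with a Y-linked score added (2.74%). All 103 and 372 of the 391 were among the 1301. Without flox/ko Cre+ 21, the only flox/ko library of code B2, 299 genes were called (2.1%), and without flox/wt Cre- 23 508 were called (3.56%). Leaving out 22, 08, 07 or 04 gave 760 (5.32%), 795 (5.57%), 801 (5.61%) and 1698 (11.9%). These shares are the ones to set beside list counts given below for the same fits. With the code as a term, leaving out 21 leaves 04 and 07 against 08, and leaving out 08 leaves 21 against 22 and 23. A call lost in those fits can reflect fewer libraries as well as the values of the library left out.

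**Figure D2:**
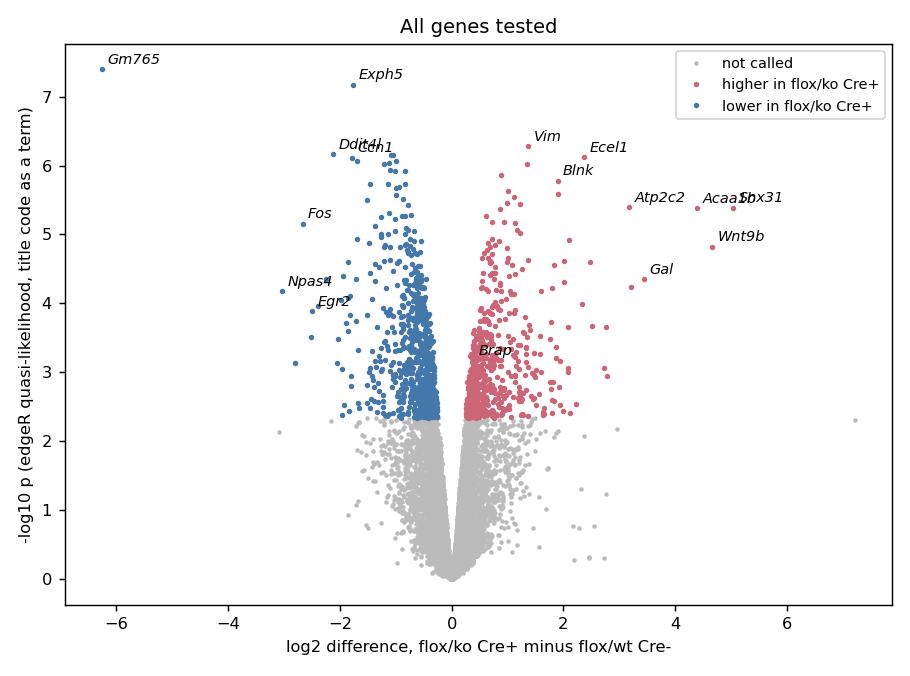
Log2 difference (x) against -log10 of the edgeR quasi-likelihood p (y, not adjusted) for each gene tested. Red points are the 573 genes called higher and blue points the 728 called lower in flox/ko Cre+. Brap lies among the higher genes, and Fos and Npas4 among the largest falls.

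The largest rises were in genes near the limit of detection in flox/wt Cre- cortex. The table had been cut on low counts before deposit. In each of its genes the fifth highest of the 10 libraries held at least 0.582 CPM by library total. A gene below that level in every flox/wt Cre- library is therefore in the table only through its higher libraries, which favours large rises here. Snx31, a sorting nexin, measured 0.101, 0.104 and 0.105 CPM in flox/wt Cre- 08, 22 and 23 and 0.831, 1.21 and 4.93 CPM in flox/ko Cre+ 04, 07 and 21. The groups did not overlap, and library 21 stood above 04 and 07. On 8 against 181 pooled counts, the ratio of Snx31 was 25.9 (exact 95% Clopper-Pearson interval 12.9 to 60.9, counting error only). Wnt9b, a secreted Wnt ligand, and Acaa1b, a peroxisomal thiolase of fatty acid oxidation, had ratios of 22.4 (12.6 to 44.0) and 16.5 (9.92 to 29.3). The fitted log2 differences of the 3 were 5.04, 4.67 and 4.40 (edgeR adjusted p 0.00168, 0.00284 and 0.00168), and without library 21 none was called (0.099, 0.087 and 0.088). Gal, the neuropeptide galanin, rose on 2 to 23 counts a library in flox/wt Cre- and 42 to 145 in flox/ko Cre+, a ratio of 8.23 (5.82 to 11.9), and it stayed called without any 1 library. Gal was not called without the code or in a fit of all 10 libraries.

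Other large rises were at higher levels. Ecel1, a membrane metallopeptidase-like protein of neurons, measured 4.63, 12.5 and 9.20 CPM in flox/wt Cre- 08, 22 and 23 and 24.0, 31.2 and 50.9 CPM in flox/ko Cre+ 04, 07 and 21 (log2 difference 2.37, SE 0.17, edgeR adjusted p 0.00106). Every flox/ko Cre+ library was above every flox/wt Cre- library. Blnk, an adaptor of immune receptor signalling that microglia also express, measured 6.99, 4.45 and 5.35 against 28.0, 20.5 and 19.5 CPM (1.90, SE 0.16, adjusted p 0.00127). Atp2c2, a calcium and manganese pump of the secretory pathway, Htra4, a secreted serine protease, Trnp1, a nuclear protein known from neural progenitors, and Klhl2, a substrate adaptor of a cullin ubiquitin ligase, rose by 3.17, 2.47, 1.35 and 0.89. All 6 stayed called without any 1 library. Drd4, the dopamine D4 receptor, Rgs13, Pgr15l, Cd1d1 and Itgax completed the largest rises, at 2.78, 2.76, 2.73, 2.51 and 2.33. Each of these 5 lost its call without library 21, Drd4 also without 23, and Pgr15l also without 08, 23 or 07 (adjusted p 0.054 to 0.25).

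Among falling genes, Exph5 had the smallest p apart from a predicted gene. Exph5, a Rab27 effector in vesicle trafficking, measured 84.7, 58.3 and 63.6 CPM in flox/wt Cre- 08, 22 and 23 and 22.1, 22.1 and 20.3 CPM in flox/ko Cre+ 04, 07 and 21 (log2 difference -1.76, SE 0.10, edgeR adjusted p 0.000481). Ddit4l, an inhibitor of mTOR signalling, measured 24.7, 18.6 and 18.5 against 7.22, 6.69 and 3.35 CPM (-2.12, SE 0.16, adjusted p 0.00106). Fam19a1, a secreted neuronal protein, measured 68.3, 62.1 and 62.6 against 34.3, 30.7 and 30.3 CPM (-1.06, SE 0.08, adjusted p 0.00106). The groups did not overlap in these 3 genes, and each stayed called without any 1 library. Alox12b, a lipoxygenase, and Tspan11, a tetraspanin, fell by 2.24 and 1.98 and also stayed called. Rpe65, a retinoid isomerase, the sarcomere gene Tcap and the deubiquitinase gene Usp43 differed by -2.52, -2.03 and -1.95, and lost their calls without 08 or 21, 21, and 08 respectively (adjusted p 0.052 to 0.11).

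The predicted gene Gm765 (chromosome 6, 98235708 to 98342754), named here after its values were seen, had the largest fall. It measured 9.71, 7.02 and 10.4 CPM in flox/wt Cre- 08, 22 and 23 and 0.156, 0.0970 and 0.106 CPM in flox/ko Cre+ 04, 07 and 21. With 2 to 3 counts in each flox/ko Cre+ library, the ratio of flox/wt Cre- to flox/ko Cre+ was 75.8 (exact 95% Clopper-Pearson interval 38.2 to 176.0, counting error only; edgeR adjusted p 0.000481). In the separate flox/flox Cre- 09 and 24 Gm765 measured 9.87 and 2.53 CPM, and in flox/flox Cre+ 05 and 06 0.112 and 0.381 CPM. With the cut at 0.582 CPM described above, Gm765 is in the table only through its higher libraries, which favours a large fall.

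**Figure D3:**
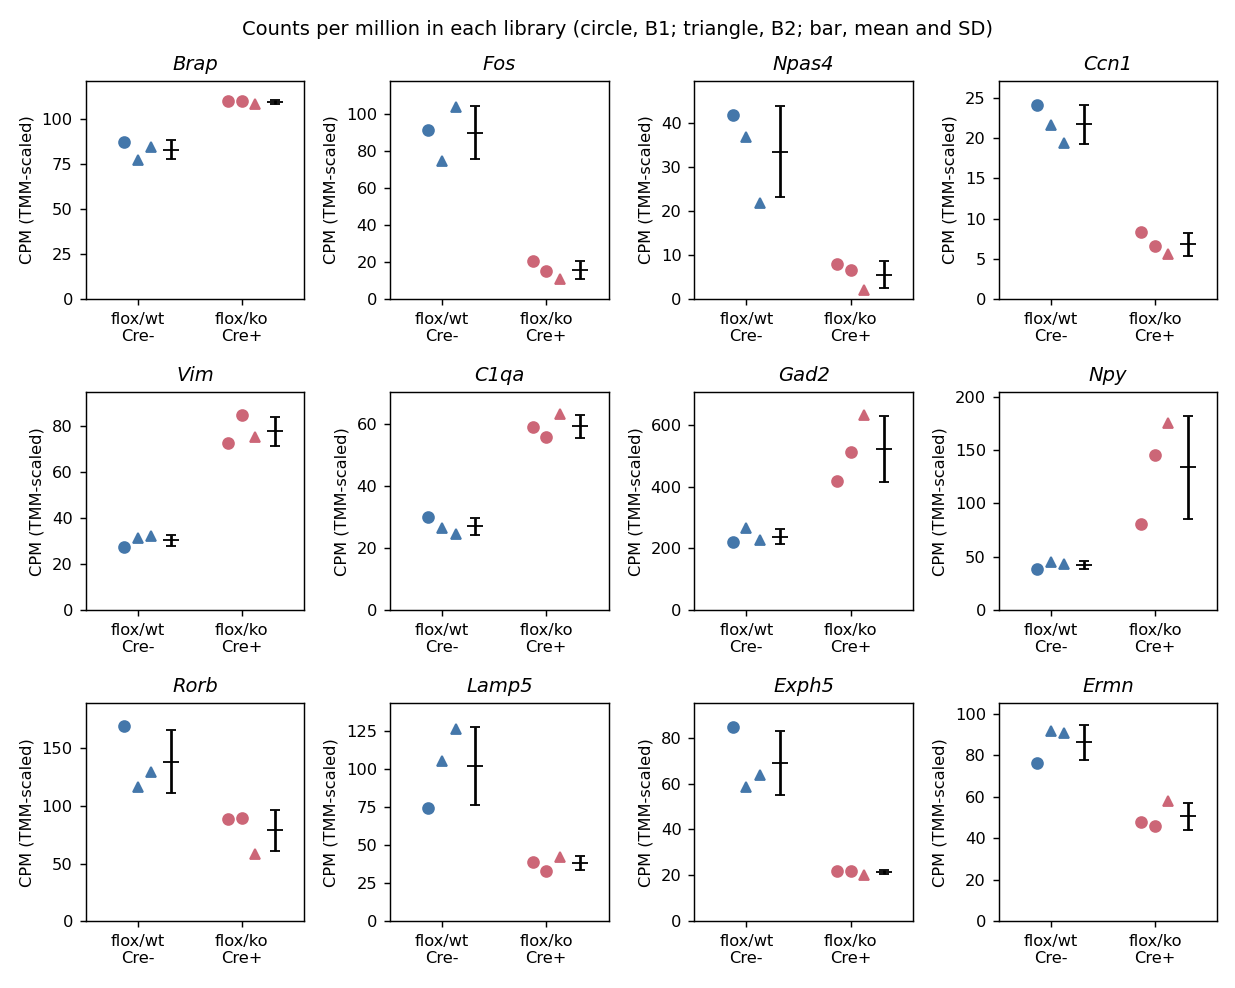
TMM-scaled CPM (y, linear from 0) of 12 genes in each library, by group (x), with circles for B1, triangles for B2 and bars for the mean and SD of 3 libraries. Fos, Npas4, Ccn1, Rorb, Lamp5, Exph5 and Ermn lie lower and Brap, Vim, C1qa, Gad2 and Npy higher in every flox/ko Cre+ library.

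Among transcription factors of the immediate early response, 9 of 24 fell and 1 rose in the libraries labelled flox/ko Cre+. Promoters of 3 of those that fell are shown because they carry matches to TGACG, the core of the site bound by CREB. Each is the 250 bases before the RefSeq transcript start (GRCm38.p6), 5′ to 3′ on the gene's strand, with TGACG or its complement CGTCA in capitals.
Fos, chr12:85473640-85473889, plus strand: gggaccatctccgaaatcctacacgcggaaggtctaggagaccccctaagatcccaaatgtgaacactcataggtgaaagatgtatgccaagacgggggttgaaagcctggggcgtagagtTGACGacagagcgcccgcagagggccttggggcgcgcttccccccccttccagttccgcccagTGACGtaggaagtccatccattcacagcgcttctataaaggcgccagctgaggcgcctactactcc
Nr4a2, chr2:57124004-57124253, minus strand: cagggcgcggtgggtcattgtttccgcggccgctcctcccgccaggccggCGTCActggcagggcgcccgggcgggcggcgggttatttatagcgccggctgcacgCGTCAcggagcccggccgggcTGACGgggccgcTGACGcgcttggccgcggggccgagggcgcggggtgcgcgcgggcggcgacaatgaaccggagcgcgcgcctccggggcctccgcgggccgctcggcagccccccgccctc
Egr4, chr6:85513590-85513839, minus strand: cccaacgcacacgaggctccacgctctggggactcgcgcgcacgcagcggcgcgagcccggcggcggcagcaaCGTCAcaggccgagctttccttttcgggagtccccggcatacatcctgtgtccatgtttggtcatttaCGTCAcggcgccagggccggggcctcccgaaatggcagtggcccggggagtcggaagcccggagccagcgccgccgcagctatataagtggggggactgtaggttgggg
Searched on both strands from 250 bases before to 50 after the start, TGACG was found in 13 of the 19 immediate early genes with a RefSeq window, including 6 of the 7 that fell, and in 20.8% of 32851 mouse windows. The whole palindrome TGACGTCA, which contains TGACG, was found in 1 of the 19, Btg2, and in 1.79% of all windows. The AP-1 site TGANTCA and the CArG box of serum response factor were found in 0 of the 19, against 7.81% and 1.63% of all windows, and the STAT site TTCNNNGAA in 1, against 8.3%. Sequence further upstream was not searched, and Ier2, Egr1, Egr3, Fosl1 and Klf10 had no window. For Nr4a1, Atf3 and Jund the RefSeq start used lay 12577, 34706 and 1210 bases from the GENCODE gene start. A count of 0 therefore does not show that these genes lack such sites. A match is a string of letters, and binding was not measured.

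The called share of the 24 immediate early factors was 41.7%, against 9.12% of all genes, and the median log2 difference was -1.04, against 0.01 over all genes. Fos (ENSMUSG00000021250.13) measured 91.4, 74.9 and 104 CPM in flox/wt Cre- 08, 22 and 23 and 20.9, 15.3 and 11 CPM in flox/ko Cre+ 04, 07 and 21, a log2 difference of -2.66 (SE 0.22, edgeR adjusted p 0.00213). Npas4, a neuron-specific factor induced by calcium entry, measured 41.7, 36.8 and 21.9 against 8.05, 6.60 and 2.15 CPM (-3.04, SE 0.34, adjusted p 0.00543). The groups did not overlap in either gene, and in both library 21 was lowest. Egr2, a zinc finger factor, measured 28.9, 21.7 and 39.5 against 4.94, 2.96 and 6.87 CPM (-2.50, SE 0.32, adjusted p 0.00779). Nr4a2, an orphan nuclear receptor, measured 68.5, 45.7 and 68.1 against 23.8, 28.3 and 27.4 CPM (-1.22, SE 0.17, adjusted p 0.00748). The groups were apart in Egr2 and Nr4a2 as well, and both lost their calls without flox/wt Cre- 08 (adjusted p 0.066 and 0.068).

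Btg2, an antiproliferative factor, Ier2, Egr4, Egr1 and Fosb, a partner of Jun proteins, fell by 2.06, 1.71, 1.52, 1.47 and 1.01 (edgeR adjusted p 0.00906 to 0.028). Jun itself rose by 0.45 (adjusted p 0.0127) with overlapping groups, at 45.3, 62.2 and 64.7 against 57.1, 59.1 and 91.3 CPM. Nr4a1 and Junb differed by -2.16 and -1.36 and narrowly missed the threshold (adjusted p 0.0535 and 0.0505), and Atf3, Maff and Fosl1 by 0.32, 0.74 and 0.51 (adjusted p 0.313 to 0.565). Btg2, Ier2, Egr4, Egr1, Fosb and Jun lost their calls without library 21, and all but Ier2 also without 1 or 2 of libraries 08, 23 and 07 (adjusted p 0.051 to 0.2). The summed level of the 24 was 1312, 1159 and 1735 CPM in flox/wt Cre- 08, 22 and 23 and 706.5, 582.5 and 734 CPM in flox/ko Cre+ 04, 07 and 21, so the groups were apart in the sum as well. The list held 6 falling genes with the Y-linked score, 3 without the code and 4 without library 21, with medians of -1.18, -1.02 and -0.84. It held 12 without 22, where 5.32% of all genes were called, and 6 without 08 or 07 (5.57% and 5.61% of all genes).

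Effectors downstream of activity moved in both directions. Of 24 tested, 7 fell and 3 rose, or 41.7%, against 9.12% of all genes, with a median of -0.29. The balance turned without flox/wt Cre- 08, where 5 rose and 2 fell. Without 21, 1 rose and 2 fell, without 23, 1 rose and 5 fell, and without the code 0 rose and 1 fell. Arc, which traffics glutamate receptors at synapses, measured 639, 305 and 602 CPM in flox/wt Cre- 08, 22 and 23 and 162, 123 and 136 CPM in flox/ko Cre+ 04, 07 and 21, without overlap (log2 difference -1.95, SE 0.30, edgeR adjusted p 0.0207). Ccn1, a matrix protein induced by serum and activity, measured 24.1, 21.7 and 19.3 against 8.36, 6.55 and 5.57 CPM (-1.79, SE 0.14, adjusted p 0.00106). Trib1, a pseudokinase, Pcsk1, a prohormone convertase, and Dusp1, a phosphatase of MAP kinases, fell by 1.34, 1.07 and 1.43, and Rgs4 by 0.48. Those that rose were Nptx2 (1.29), a pentraxin that clusters AMPA receptors, Scg2 (0.84), a granin of dense-core vesicles, and Rgs2 (0.73), a regulator of G-protein signalling. Bdnf, the neurotrophin, differed by 0.61 (adjusted p 0.137), and Homer1, a synaptic scaffold, by -0.55 (adjusted p 0.123). Ccn1, Pcsk1 and Rgs2 stayed called without any 1 library. Pcsk1 and Rgs2 were not called without the code, nor Pcsk1 with the Y-linked score. Arc, Trib1, Dusp1, Rgs4, Nptx2 and Scg2 lost their calls without 2 or more libraries in turn, 21 among them (adjusted p 0.05 to 0.18).

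Genes that report ERK output were lower in part. Of 18 targets 5 fell and 1 rose, or 33.3%, against 9.12% of all genes, with a median of -0.23. The number that fell was 3 without 08, 23 or 21, 2 with the Y-linked score and 1 without the code, and the median was -0.12 without 08. Etv1, an ETS factor, measured 90.3, 88.5 and 99.9 CPM in flox/wt Cre- 08, 22 and 23 and 52.9, 55.1 and 50.9 CPM in flox/ko Cre+ 04, 07 and 21, well apart (log2 difference -0.82, SE 0.08, edgeR adjusted p 0.00232). Dusp6, the phosphatase that ERK induces against itself, measured 124, 107 and 135 against 67.1, 49.9 and 73.7 CPM (-0.90, SE 0.15, adjusted p 0.0137). Spred3, an inhibitor of RAS signalling, Etv5, another ETS factor, and Epha4, an ephrin receptor, fell by 0.72, 0.70 and 0.46, and Il17rd, an inhibitor of growth factor signalling, rose by 0.52. The Sprouty gene Spry4 differed by -0.54 (adjusted p 0.107) and Spry2 by -0.22 (adjusted p 0.122). Etv1 and Spred3 stayed called without any 1 library. Dusp6 lost its call without 08 or 21, Etv5 without 08 or 23, and Epha4 and Il17rd without 4 or more of the libraries in turn (adjusted p 0.053 to 0.39).

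Among 24 members of the RAS, RAF, MEK and ERK cascade the median was 0.00, and 1 was called, or 4.17%, against 9.12% of all genes. That gene, Grb2, an adaptor that recruits SOS to receptors, measured 95.3, 120 and 114 CPM in flox/wt Cre- 08, 22 and 23 and 112, 118 and 139 CPM in flox/ko Cre+ 04, 07 and 21 (log2 difference 0.26, edgeR adjusted p 0.0488). Its groups overlapped, and it was called in only 1 of the 6 fits that left out a library. The scaffold genes Ksr1 and Ksr2 differed by 0.24 and -0.15, and the MEK and ERK genes Map2k1, Map2k2 and Mapk3 by 0.29, 0.24 and 0.21. EdgeR called none of these. DESeq2 called 3 of the 24 higher and 1 lower, and 1755 of all genes in either direction.

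Reactive astrocyte genes were higher in part. Of 28 reactive genes 6 rose and 0 fell, or 21.4%, against 4.02% of all genes called higher, with a median of 0.31. The number that rose was 3 without 23 or 21 or without the code, and 4 without 22. Vim, vimentin, an intermediate filament, measured 27.7, 31.6 and 32.1 CPM in flox/wt Cre- 08, 22 and 23 and 72.9, 85.0 and 75.6 CPM in flox/ko Cre+ 04, 07 and 21 (log2 difference 1.37, SE 0.10, edgeR adjusted p 0.00106). Gfap, the main filament of astrocytes, measured 145, 126 and 151 against 329, 573 and 343 CPM (1.47, SE 0.23, adjusted p 0.016). The groups did not overlap in either gene, and library 07 was highest in both. Serpina3n, a secreted protease inhibitor, Aspg, an asparaginase homologue, Osmr, which forms part of the receptor for oncostatin M, and Fkbp5, a co-chaperone of steroid receptors, rose by 1.37, 1.32, 0.98 and 1.00. Vim and Fkbp5 stayed called without any 1 library. The other 4 lost their calls without library 21 (adjusted p 0.05 to 0.24 over the libraries that ended a call), Gfap also without any 1 of 08, 22 and 23.

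The 20 general astrocyte markers had 0 calls in edgeR (3 at an unadjusted p under 0.05, 1 called by DESeq2 and 0 by limma-voom) and a median of 0.03, with Aqp4, the water channel of astrocyte endfeet, at 0.04 and Aldh1l1, a folate enzyme, at 0.06. Their summed level was 8804 to 10550 CPM in flox/wt Cre- and 7890 to 11060 CPM in flox/ko Cre+ libraries, so the groups overlapped. The summed level of the 28 reactive genes was 488 to 500.2 CPM in flox/wt Cre- and 786 to 1083 CPM in flox/ko Cre+ libraries, so the groups were apart.

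Microglial and complement genes were higher in part. Of 13 complement genes 4 rose and 0 fell, or 30.8%, against 4.02% of all genes called higher, with a median of 0.73. The fit of all 10 libraries called fewer genes over all, 691 of 14276 against 1301 of 14269 in the fit of 6. In it edgeR called 0 of the complement, 0 of the homeostatic microglia, 0 of the lysosomal and 2 of the disease-associated microglia genes. The list medians there were 0.81, 0.30, 0.21 and 0.32. C1qa, a chain of the first complement component, measured 30.1, 26.3 and 24.6 CPM in flox/wt Cre- 08, 22 and 23 and 59.0, 55.5 and 62.9 CPM in flox/ko Cre+ 04, 07 and 21, without overlap (log2 difference 1.12, SE 0.10, edgeR adjusted p 0.00149). C1qc and C1qb, the other chains, and C3ar1, a receptor of complement fragment C3a, rose by 1.04, 1.01 and 1.31. C3 and C4b, central components, differed by 0.97 and 0.93 and were not called (adjusted p 0.123 and 0.0567). C1qa stayed called without any 1 library but not in the fit of all 10 libraries (adjusted p 0.078), while C1qc, C1qb and C3ar1 lost their calls without library 21 (adjusted p 0.061 to 0.23) and C1qb also without 23.

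Disease-associated microglia were represented by 20 genes, of which 8 rose and 0 fell, or 40.0%, against 4.02% of all genes called higher, with a median of 0.25. Their summed level was 2089 to 2836 CPM in flox/wt Cre- and 2519 to 2728 CPM in flox/ko Cre+ libraries, so the groups overlapped in the sum. Gpnmb, a membrane glycoprotein of phagocytes, measured 3.97, 2.71 and 2.90 CPM in flox/wt Cre- 08, 22 and 23 and 10.6, 10.2 and 6.24 CPM in flox/ko Cre+ 04, 07 and 21 (log2 difference 1.27, SE 0.15, edgeR adjusted p 0.00383). Itgax, the integrin CD11c, measured 0.553, 0.660 and 0.525 against 3.95, 2.23 and 2.82 CPM (2.33, SE 0.34, adjusted p 0.00694), on 11 to 19 counts a library in flox/wt Cre-. Both genes were apart between the groups. Lgals3, a galectin, Lyz2, a lysozyme, Cd68, a lysosomal protein, Spp1, osteopontin, Timp2, a metalloproteinase inhibitor, and Ctsd, cathepsin D, rose by 1.25, 1.21, 0.92, 0.78, 0.68 and 0.37. Gpnmb alone of the 8 stayed called without any 1 library, and the other 7 lost their calls without 1 or more of the 6 (adjusted p 0.062 to 0.24). In the list 3 genes rose with the Y-linked score, 1 without the code, 2 without library 21 and 3 without 08.

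Of 20 homeostatic microglia genes 5 rose and 0 fell, or 25.0%, against 4.02% of all genes called higher, with a median of 0.29. The number that rose was 1 without 21, 2 without 23, with the Y-linked score or without the code, and 3 without 08 or 07. Ctss, cathepsin S, measured 47.5, 46.6 and 47.9 CPM in flox/wt Cre- 08, 22 and 23 and 77.4, 86.6 and 90.4 CPM in flox/ko Cre+ 04, 07 and 21, well apart (log2 difference 0.86, SE 0.08, edgeR adjusted p 0.00168). Tyrobp, a signalling adaptor, and Trem2, the receptor it serves, rose by 0.83 and 0.68, and Csf1r, the receptor microglia need to survive, by 0.38. The defining markers P2ry12, Cx3cr1 and Tmem119 differed by 0.00, 0.15 and 0.33 and were not called (adjusted p 0.995, 0.334 and 0.0915). Ctss stayed called without any 1 library but not in the fit of all 10 libraries (adjusted p 0.162), and Tyrobp, Trem2 and Csf1r lost their calls without library 21 (adjusted p 0.059 to 0.27 over the libraries that ended a call).

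Of 31 interferon-stimulated genes 1 rose, Trim30a (0.81), and 1 fell, Xaf1 (-1.26), which is 6.45% called against 9.12% of all genes, and the median was 0.05. Xaf1 lost its call without 23 or 21 and Trim30a without any 1 library (adjusted p 0.053 to 0.2). In edgeR 1 of 15 genes of MHC class I and antigen processing rose, the lipid-presenting Cd1d1. That is 6.67%, against 9.12% of all genes called in either direction and 4.02% called higher. DESeq2 called 3 of the 15 higher, and 1755 of all genes in either direction. The classical H2-K1 and H2-D1 differed by 0.72 and 0.52 without a call in edgeR. Of 22 lysosomal genes 4 rose, or 18.2%, against 4.02% of all genes called higher. Ctss, Cd68 and Ctsd, described above, were among them. The number was 1 without 08 or 23, without the code or with the Y-linked score, and 2 without 21. The median was 0.11 for the MHC list and 0.19 for the lysosomal list.

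**Figure D4:**
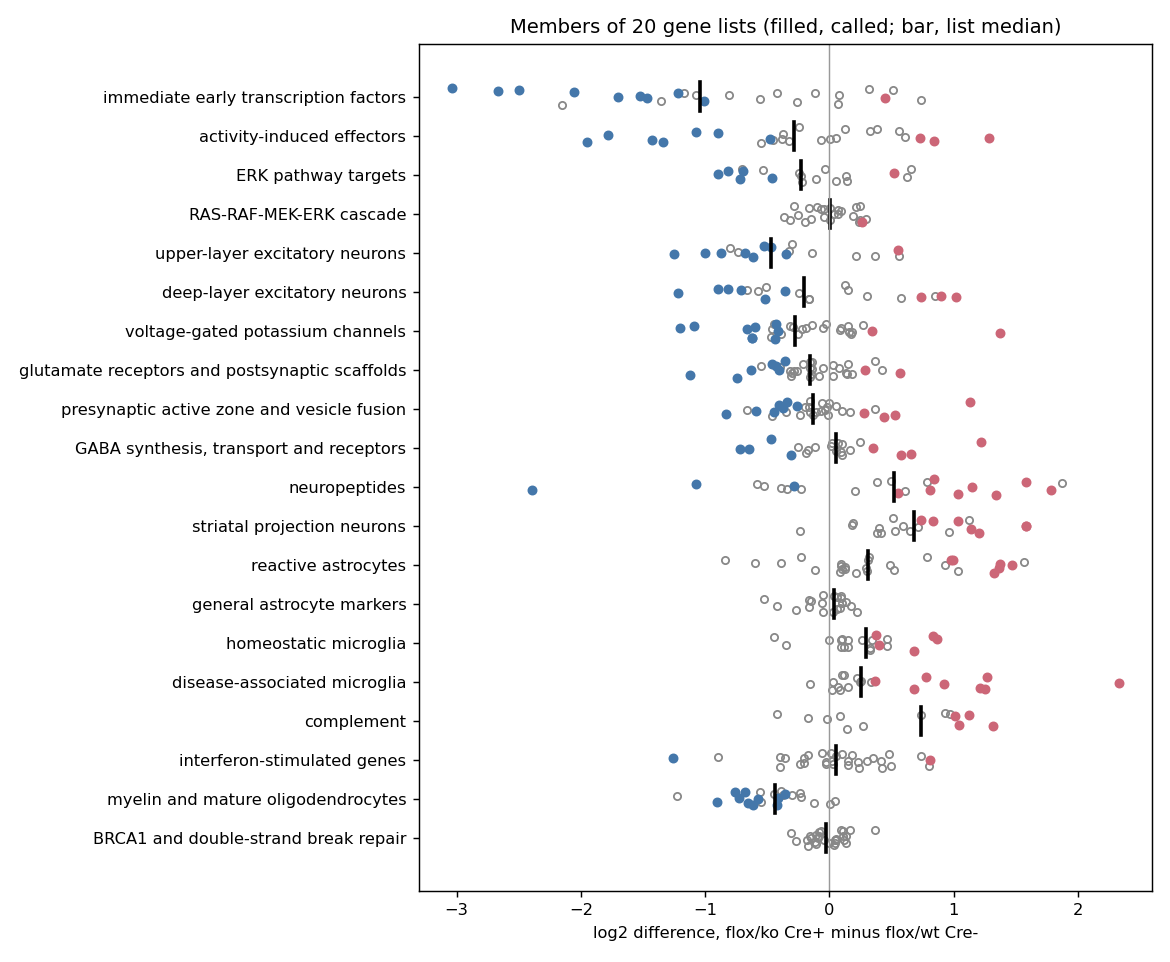
Log2 difference (x) of each tested member of 20 gene lists (y). Filled points are called genes, red higher and blue lower, open points are not called, and bars are list medians. Immediate early factors (-1.04), upper-layer markers (-0.47) and myelin genes (-0.44) have medians below 0, and complement genes (0.73), striatal genes (0.68) and neuropeptides (0.52) above it.

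Myelin genes were lower in part. Of 22 genes of mature oligodendrocytes 10 fell and 0 rose, or 45.5%, against 5.1% of all genes called lower, and the median was -0.44. Ermn, ermin, a cytoskeletal protein of myelinating cells, measured 76.3, 91.5 and 90.6 CPM in flox/wt Cre- 08, 22 and 23 and 48.1, 45.7 and 57.8 CPM in flox/ko Cre+ 04, 07 and 21 (log2 difference -0.68, SE 0.07, edgeR adjusted p 0.00238). The groups were apart, with every flox/ko Cre+ library below every flox/wt Cre- library. Aspa, an enzyme that frees acetate for myelin lipids, Fa2h and Ugt8a, enzymes of myelin lipid synthesis, Car2, a carbonic anhydrase, and Mbp, myelin basic protein, fell by 0.91, 0.76, 0.65, 0.61 and 0.41. Mal, Ndrg1 and Mobp also fell, by 0.57, 0.43 and 0.36, while Mag, a myelin adhesion protein, differed by -0.23 (adjusted p 0.113). The summed level was 4778 to 5688 CPM in flox/wt Cre- and 3244 to 3859 CPM in flox/ko Cre+ libraries, without overlap.

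Ermn stayed called without any 1 library, Car2 and Ugt8a lost their calls without 08, and Aspa, Fa2h, Mbp, Mal, Ndrg1 and Mobp without library 21 and up to 3 others (adjusted p 0.051 to 0.3). The list held 7 falling genes with the Y-linked score, 0 without the code and 3 without library 21, with medians of -0.50, -0.53 and -0.45. It held 5 without 08 and 6 without 23. Of 16 genes of oligodendrocyte precursors and committed precursors 2 rose, Vcan (0.43), a proteoglycan, and Lhfpl3 (0.53), and 2 fell, Enpp6 (-0.87), a marker of newly forming oligodendrocytes, and Sox10 (-0.67), a factor of the whole lineage. The called share was 25.0%, against 9.12% of all genes. These 4 had edgeR adjusted p of 0.0352 to 0.0471, and each lost its call without 4 or more of the libraries in turn (adjusted p 0.057 to 0.36).

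Markers of excitatory neurons fell in part in upper layers and moved both ways in deep layers. Of 17 upper-layer markers 8 fell and 1 rose, or 52.9%, against 9.12% of all genes, with a median of -0.47. Lamp5, a LAMP-family membrane protein, measured 74.8, 105 and 126 CPM in flox/wt Cre- 08, 22 and 23 and 39.1, 33.3 and 42.2 CPM in flox/ko Cre+ 04, 07 and 21 (log2 difference -1.25, SE 0.13, edgeR adjusted p 0.00249). Rorb, the nuclear receptor that marks layer 4, measured 169.5, 117 and 129 against 88.5, 90.1 and 58.3 CPM (-1.0, SE 0.08, adjusted p 0.00106). The groups did not overlap in either, and both stayed called without any 1 library. Plcxd2, Kitl, a secreted growth factor, Pou3f2, a homeodomain factor, Nectin3, Lhx2 and Cux1 also fell, by 0.88, 0.68, 0.62, 0.53, 0.47 and 0.35, and the cadherin Cdh13 rose by 0.55. Cux2, a factor of upper layers, differed by 0.37 without a call (adjusted p 0.0788). Plcxd2 lost its call without 08, and the other 6 called genes without library 21 (adjusted p 0.05 to 0.33 over the libraries that ended a call). Without library 21, 3 markers fell and 0 rose, without 08 5 fell and 1 rose, and without the code 1 fell.

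Of 20 deep-layer markers 6 fell and 3 rose, or 45.0%, against 9.12% of all genes, with a median of -0.20. The number that fell was 3 without any 1 of 08, 22, 23 and 21, and 2 without the code. Those that rose were Syt6, a synaptotagmin of layer 6, Nxph4, a neurexophilin of the deepest cells, and Sulf1, a heparan sulfatase, by 1.02, 0.90 and 0.74. Syt6 measured 32.9, 39.6 and 37.2 CPM in flox/wt Cre- 08, 22 and 23 and 60.2, 59.8 and 85.7 CPM in flox/ko Cre+ 04, 07 and 21, without overlap (edgeR adjusted p 0.00139). Nr4a2 and Etv1, described above, fell, as did Fam84b (-0.89), Ccn2 (-0.71), a matrix protein of layer 6b, Ldb2 (-0.52) and Tle4 (-0.36). Neurod6, a bHLH factor of cortical excitatory neurons as a whole, measured 74.0, 84.8 and 88.0 against 44.7, 47.4 and 46.9 CPM (-0.78, SE 0.08, adjusted p 0.00238). Syt6 and Neurod6 stayed called without any 1 library, and Nxph4 was called in 0 of the 6 fits that left out a library (adjusted p 0.057 to 0.34).

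Genes of inhibitory transmission moved in both directions. Of 21 tested 4 rose and 4 fell, or 38.1%, against 9.12% of all genes, with a median of 0.05. Without 21, 1 rose and 1 fell, and without the code 1 rose and 0 fell, while 2 rose and 3 fell without 08 or 23. Gad2, an enzyme that makes GABA, measured 220, 267 and 228 CPM in flox/wt Cre- 08, 22 and 23 and 419, 511 and 632 CPM in flox/ko Cre+ 04, 07 and 21 (log2 difference 1.22, SE 0.11, edgeR adjusted p 0.00166). The other 3 that rose were Gad1 (0.66), the second such enzyme, Slc32a1 (0.57), which loads GABA into vesicles, and Abat (0.35), which breaks it down. Receptor subunit genes that fell included Gabrd (-0.72), Gabra5 (-0.65) and Gabrb2 (-0.31). Gad2 was apart between the groups and stayed called without any 1 library. Gad1, Slc32a1, Abat, Gabrd, Gabra5 and Gabrb2 lost their calls without library 21 (adjusted p 0.055 to 0.14 over the libraries that ended a call).

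Of 28 genes of interneuron subtypes 5 rose and 1 fell, or 21.4%, against 9.12% of all genes, with a median of 0.08. Without 08, 2 rose and 2 fell, and without 23, 1 rose and 1 fell. Npy, neuropeptide Y, measured 38.3, 45.4 and 43.2 CPM in flox/wt Cre- 08, 22 and 23 and 80.8, 145 and 175 CPM in flox/ko Cre+ 04, 07 and 21, apart between the groups (log2 difference 1.78, SE 0.23, edgeR adjusted p 0.00918). Tac1, the precursor of substance P, Dlx6, a homeodomain factor, Sst, somatostatin, and Nos1, nitric oxide synthase of neurons, rose by 1.34, 0.75, 0.55 and 0.41. Cort, cortistatin, a relative of somatostatin, measured 2.61, 2.54 and 4.48 against 0.623, 0.534 and 0.564 CPM (-2.40, SE 0.35, adjusted p 0.00716). Pvalb and Vip, markers of other subtypes, differed by -0.26 and -0.34 without a call. Without library 21 edgeR called 0 of the 28 (adjusted p 0.053 to 0.14 for the 6 over the libraries that ended a call). In that fit 2.1% of all genes were called, and the list median was 0.15.

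Neuropeptide genes moved in both directions. Of 22 tested 8 rose and 3 fell, or 50%, against 9.12% of all genes, with a median of 0.52. Besides Npy, Tac1, Sst and Scg2, those that rose were Penk and Pdyn, the precursors of enkephalins and dynorphins, by 1.58 and 1.04, Nts, neurotensin, by 1.15, and Crhbp, which binds the stress peptide CRH, by 0.81. The convertases Pcsk1 and Pcsk2 fell by 1.07 and 0.28, and Cort also fell. Penk measured 75.4, 177 and 130.4 CPM in flox/wt Cre- 08, 22 and 23 and 175, 307.5 and 430.5 CPM in flox/ko Cre+ 04, 07 and 21, so flox/wt Cre- 22 overlapped flox/ko Cre+ 04. With library 21 left out 0 rose and 1 fell, with 23 left out 1 rose and 2 fell, without the code 0 rose and 1 fell, and with the Y-linked score 2 rose and 1 fell.

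Striatal markers, which can report neighbouring tissue in a cortical dissection, were higher in part. Penk and Pdyn are on both this list and the neuropeptide list, so their rises are counted in both. Of 20 listed genes 7 rose and 0 fell, or 35.0%, against 4.02% of all genes called higher, with a median of 0.68: Penk, Pdyn, Isl1 (1.58), Ppp1r1b (1.21), Rgs9 (1.14), Drd1 (0.84) and Syndig1l (0.74). Their summed level was 1062, 1990 and 1538 CPM in flox/wt Cre- 08, 22 and 23 and 1641, 2235 and 2623 CPM in flox/ko Cre+ 04, 07 and 21, so the groups overlapped. The receptor genes Drd2 and Adora2a differed by 0.96 and 0.53 without a call. No gene of the list was called with the Y-linked score (0 of 20), and 1 was called without library 21 or 23, 2 without 08 and 0 without the code. By contrast 13 rose without flox/wt Cre- 22, where 5.32% of all genes were called, and 13 in DESeq2, which called 1755 of all genes. Penk, Pdyn and Tac1 are expressed in striatum as well as cortex, and Gad1 and Gad2 in both. The part of striatal tissue in their differences was not tested.

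Most genes of excitatory synapses were not called. Of 34 glutamate receptor and scaffold genes 7 fell and 2 rose, or 26.5%, against 9.12% of all genes, with a median of -0.16. The number that fell was 4 without 23 or 21, 1 without the code, 12 without 04 and 13 in DESeq2. Over all genes 11.9% were called without 04, and DESeq2 called 1755. Grm2, a presynaptic metabotropic receptor, measured 52.1, 44.9 and 44.4 CPM in flox/wt Cre- 08, 22 and 23 and 26.4, 24.0 and 19.5 CPM in flox/ko Cre+ 04, 07 and 21 (log2 difference -1.12, SE 0.09, edgeR adjusted p 0.00106). Homer2, a scaffold, and Grm3 fell by 0.74 and 0.63, Camk2a by 0.46, Grin2a by 0.43, and the AMPA receptor genes Gria3 and Gria4 by 0.40 and 0.36. Grik5, a kainate receptor subunit, and Camk2b rose by 0.57 and 0.28. Grm2 was apart between the groups, and Grm2, Homer2 and Grm3 stayed called without any 1 library. Gria3, Gria4, Camk2a, Grin2a, Grik5 and Camk2b lost their calls without 1 or more (adjusted p 0.05 to 0.23).

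Of 31 presynaptic genes 7 fell and 4 rose, or 35.5%, against 9.12% of all genes, with a median of -0.13. Without 21, 2 fell and 1 rose, without 08 or 23 3 fell, and without the code 0 fell and 1 rose. Rims1, a scaffold of the active zone, measured 531, 423 and 425 CPM in flox/wt Cre- 08, 22 and 23 and 294, 270.3 and 251 CPM in flox/ko Cre+ 04, 07 and 21 (log2 difference -0.83, SE 0.07, edgeR adjusted p 0.00127). Stx1a, a SNARE, Vamp1, another SNARE, Unc13a, which primes vesicles, Rims2, Syt1, the calcium sensor of release, and Pclo, the scaffold piccolo, fell by 0.59, 0.45, 0.41, 0.37, 0.34 and 0.26. Those that rose were Sv2c (1.14), Syn2 (0.53), Syn3 (0.44) and Sv2b (0.28), which encode synaptic vesicle proteins, as do Syt1 and Vamp1 among those that fell. Sv2c measured 85.8, 94.4 and 88.6 against 163, 218 and 199 CPM, with no overlap (SE 0.11, adjusted p 0.00212). Rims1 and Sv2c stayed called without any 1 library, and the other 9 lost their calls without library 21 (adjusted p 0.054 to 0.39 over the libraries that ended a call).

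Voltage-gated potassium channel genes were lower in part. Of 30 tested 9 fell and 2 rose, or 36.7%, against 9.12% of all genes, with a median of -0.27. The number that fell was 5 without 21 or 07 and 1 without the code. Kcnh7 and Kcnh5, channels of the ether-a-go-go family, fell by 1.09 and 1.2. Kcnh7 measured 566, 422 and 492.5 CPM in flox/wt Cre- 08, 22 and 23 and 296, 223 and 219 CPM in flox/ko Cre+ 04, 07 and 21, with no overlap (SE 0.12, edgeR adjusted p 0.00284). Kcns1 (-0.66), Kcnf1 (-0.62), Kcnq3 (-0.62), Kcna2 (-0.60), Kcnv1 (-0.44), Kcnb2 (-0.43) and Kcnc2 (-0.41) also fell. Kcna5, a delayed rectifier, rose by 1.37. Kcnh7, Kcnh5, Kcnf1 and Kcnq3 stayed called without any 1 library, and the other 6 named here lost their calls without 1 or more libraries (adjusted p 0.05 to 0.22).

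The glucocorticoid list holds targets of the glucocorticoid receptor and the receptor genes Nr3c1 and Nr3c2. Of its 16 genes 5 rose and 1 fell, or 37.5%, against 9.12% of all genes, with a median of 0.34. The number that rose was 1 without 08 or without the code, 2 without 21 or with the Y-linked score, and 3 without 22 or 07. Fkbp5 measured 39.6, 38.8 and 36.3 CPM in flox/wt Cre- 08, 22 and 23 and 72.4, 69.0 and 83.4 CPM in flox/ko Cre+ 04, 07 and 21, well apart (log2 difference 1.00, SE 0.09, edgeR adjusted p 0.00166). Plin4, a lipid droplet protein, the metallothioneins Mt1 and Mt2, and Tsc22d3, a leucine zipper protein, rose by 1.06, 0.64, 0.48 and 0.28. Nr3c1, the glucocorticoid receptor itself, fell from 236, 221 and 229 to 157, 150 and 162 CPM (-0.55, SE 0.07, adjusted p 0.0043). Fkbp5 and Nr3c1 stayed called without any 1 library, while Mt1 lost its call without 08 and the other 3 without 3 or more libraries in turn (adjusted p 0.051 to 0.33). Of 20 circadian clock genes 4 fell and 0 rose, or 20%, against 5.1% of all genes called lower, with a median of -0.24: Rorb, Hlf (-0.74), Rora (-0.58) and Bhlhe40 (-0.57). The core clock genes Clock, Per2 and Cry1 differed by 0.00, 0.19 and 0.15 without a call, and Hlf, Rora and Bhlhe40 lost theirs without library 21 (adjusted p 0.05 to 0.25 over the libraries that ended a call).

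The next lists are read against the 9.12% called over all genes. Of 28 genes of BRCA1 and double-strand break repair edgeR called 0 (1 at an unadjusted p under 0.05, 0 by DESeq2 and limma-voom), with a median of -0.03, Rbbp8 at -0.31 and Brca1 at 0.04. Of 22 p53 targets 1 rose, Trp53inp1 (0.41), and 1 fell, Zmat3 (-0.32), a share of 9.09%, and Cdkn1a, the inhibitor p21, differed by 0.83 without a call. Of 29 writers and erasers of ubiquitin on histone H2A 1 fell, Pcgf5 (-0.49). Of 19 senescence genes 4 rose, among them Tgfb1 (1.2), Igfbp7 (0.63) and Igfbp3 (0.54), and 1 fell, Cdkn1c (-1.13), a share of 26.3%. The number of senescence genes that rose was 1 without 23 or 21 or without the code, and 2 without 22. Of 22 mitosis and proliferation genes 1 fell, Ccnd2, cyclin D2 (-0.77). Ccnd2 stayed called without any 1 library, and Trp53inp1, Zmat3, Pcgf5, Tgfb1, Igfbp7, Igfbp3 and Cdkn1c did not (adjusted p 0.051 to 0.42).

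In the remaining lists, edgeR called 0 of 15 pericyte and smooth muscle, 0 of 13 choroid plexus, 0 of 7 blood and 0 of 20 heat shock genes. At an unadjusted p under 0.05 these held 6, 0, 1 and 4 genes, and DESeq2 called 0, 0, 0 and 1 and limma-voom 0 in each. Of 20 endothelial genes 2 rose, the transporters Slc2a1 (0.68) and Mfsd2a (0.61), and of 15 meningeal genes 3 fell, Ogn (-0.91), Slc13a4 (-0.87) and Slc6a13 (-0.72). Of 22 genes of the TGF-beta pathway Tgfb1 rose and Id2 (-0.50) fell, of 18 genes of the IL-6 family Osmr and Cebpd (1.13) rose, and of 22 cholesterol synthesis genes Fdft1 (0.45) rose. Without flox/ko Cre+ 04, where 11.9% of all genes were called, 7 cholesterol genes rose, and without any 1 of 08, 22, 23 and 21 edgeR called 0. Of 17 hippocampal and thalamic markers Wfs1 (1.07) and C1ql2 (0.96) rose. The percentages called in these 10 lists ran from 0 to 20%, against 9.12% of all genes, with 10% of the endothelial, 11.1% of the IL-6 family and 9.09% of the TGF-beta genes near that share, and each named gene lost its call without 1 or more libraries (edgeR adjusted p 0.058 to 0.3).

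The separate flox/flox libraries gave a second set of libraries with other controls. Of the 1301 called genes 1068 (82.1%) had the same direction between flox/flox Cre+ 05 and 06 and flox/flox Cre- 09 and 24, against 59.5% of all genes tested. Against the B1 control 09 alone 1201 (92.3%) did, against 67.6% of all genes. The higher and lower genes had medians of 0.56 and -0.58 in the flox/ko comparison and of 0.26 and -0.32 in the flox/flox comparison. These genes were chosen on their flox/ko values, which favours larger sizes there. The flox/ko values are fitted with the title code, and the flox/flox values are plain differences of mean log2 CPM. Whether sizes differ between the sets cannot be read from these medians. In the fit of all 10 libraries 105 genes (0.736%) were called between flox/flox Cre+ and flox/flox Cre-, 48 higher and 57 lower. Both flox/flox Cre+ libraries are B1 and had Y-linked CPM of 287 and 270, against at most 0.254 in both Cre- libraries, so sex and genotype cannot be told apart in that set. In the flox/ko comparison Y-linked levels were high in flox/ko Cre+ 07 and 21 and in flox/wt Cre- 23, so sex leans the same way in both sets. Its part in the shared directions was not tested.

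**Figure D5:**
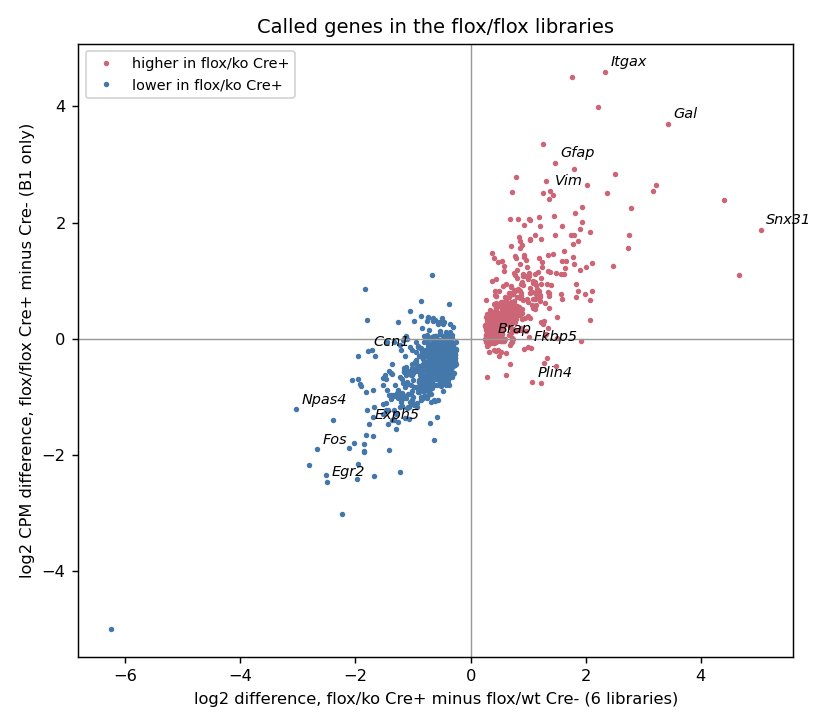
Log2 difference of flox/ko Cre+ against flox/wt Cre- (x) against the log2 CPM difference between flox/flox Cre+ 05 and 06 and flox/flox Cre- 09, all of code B1 (y), for the 1301 genes called on x. Red genes are higher and blue genes lower in flox/ko Cre+, and 92.3% have the same sign on both axes.

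Some lists had different medians in the sets, given here side by side. The flox/ko medians are fitted with the title code. The flox/flox medians are plain differences against 09 (B1) and 24 (B2) together, so they mix codes. Myelin genes had a median of -0.44 in flox/ko and 0.18 in flox/flox libraries, and the glucocorticoid list 0.34 and -0.21. Interferon-stimulated genes had 0.05 and 0.89, genes of MHC class I 0.11 and 0.89, and homeostatic microglia genes 0.29 and 0.96. Immediate early factors had -1.04 and -0.86. Against the B1 control 09 alone, the flox/flox medians were 0.17 for myelin genes and -0.39 for the glucocorticoid list. They were 0.53 for interferon-stimulated genes, 0.96 for MHC class I, 0.97 for homeostatic microglia genes and -0.79 for immediate early factors. Fkbp5 measured 47.5 and 52.2 CPM in flox/flox Cre- 09 and 24 and 44.2 and 42.4 CPM in flox/flox Cre+ 05 and 06, so its direction there was the opposite. Brap measured 94.7 and 99.8 against 88.4 and 101.6 CPM, with overlapping groups. Gfap measured 125 and 156 against 1221 and 862 CPM.

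Whether the differences themselves depend on the genotype was tested as an interaction over all 10 libraries. The edgeR test called 0 of 14276 genes (0%), with a smallest adjusted p of 0.221, for Fkbp5, and 873 genes at an unadjusted p under 0.05, while limma-voom called 0, with 874 at an unadjusted p under 0.05. Brap had an interaction of 0.43 (unadjusted p 0.0122, edgeR adjusted p 0.788). Vim, Spp1 and Plin4 had -1.08, -2.23 and 1.86 (adjusted p 0.368, 0.312 and 0.305), where a positive value means a higher difference in the flox/ko set. The count depended on flox/flox Cre+ 06. Leaving it out left library 05 as the only flox/flox Cre+ library, assumed to vary like the other groups, and 32 genes were called. Genes of smallest p had negative values, such as Spp1 (-2.69), Ccl6 (-4.38), Mpeg1 (-2.98) and Tyrobp (-2.21). Libraries 05 and 06 differed in Itgax, at 19.8 and 2.57 CPM, and in Spp1, at 70.9 and 33.3 CPM. Without flox/flox Cre- 09, which left 24 as the only flox/flox Cre- library under the same assumption, Hipk4 and Ccdc107 were called, and without flox/wt Cre- 23 the predicted gene Gm14295, all 3 named after their values were seen.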

How the data were processed

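RNA of mouse cerebral cortex, depleted of ribosomal RNA per the labels' protocols, was measured in 10 libraries, 6 of which entered the comparison. The deposited table holds raw counts per gene. FastQC, Subread, featureCounts, DESeq2 and edgeR, and the build mm10 (GRCm38), are named in the submitters' processing notes. Versions and strand setting were not given in the sources used here. Overlapping genes on opposite strands therefore cannot be told apart. The table had been cut on low counts before deposit. Gene names came from GENCODE M21, which matched 14271 of 14276 IDs.

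Counts were scaled by TMM and tested with edgeR 4.0.16 (R 4.3.3), filterByExpr and a robust quasi-likelihood fit with group and title code as terms, adjusted by Benjamini-Hochberg over 14269 genes. A call is an adjusted p under 0.05. Totals of 19009828 to 28991874 counts set the precision. The test across all genes was also run on simulated counts with known changes, and the outcome is not reported here. Those counts held no effect of sex or of a single library. They therefore say nothing about the dependence on single libraries. Alternatives were DESeq2 1.42.0, limma-voom 3.58.1, other scalings, filters and terms, a test against a 1.2-fold change (glmTreat) and leaving out each library. Exact intervals cover counting error only.

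Members and gene lists were chosen with earlier results of these data known, and 41 lists are described by counts and medians. Several lists with calls in 1 direction only are read against the share of all genes called that way. That background follows from the direction seen, and the share in either direction was 9.12%. Named genes were Brap, the 12 largest rises, the 12 largest falls and the 5 smallest p in each direction. Apart from Brap, these were called genes with a mean log2 CPM of at least 0, groups apart and 1 direction in both codes. The rule also took up to 4 genes of smallest p in each list, called or not, and some of these are not named here. Other named genes were chosen after their values were seen. Predicted genes were counted and not named, apart from Gm765 and Gm14295. The Y-linked score is log2 of summed Y-linked CPM plus 1. Some genes of the lists are counted in them but not reported here.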

Additional observations from a re-analysis of the deposited data

How the results depend on the processing

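The count of 1301 genes fell to 103 without the title code, 391 with the Y-linked score, 691 in the fit of all 10 libraries and 378 against a 1.2-fold change, and ranged from 299 to 1698 when 1 library was left out. DESeq2 called 1755, limma-voom 1386 and the likelihood-ratio test 1894. Brap kept its direction, at 0.40 without the code (adjusted p 0.0885), 0.35 with the Y-linked score (0.112) and 0.38 against a 1.2-fold change (0.25), and ranged from 0.32 to 0.42 when 1 library was left out. The interaction count of 0 ranged from 0 to 32 when 1 of the 10 libraries was left out. Fam216a turned to -0.23 without the code (edgeR adjusted p 0.937). Of 195 called genes named or listed, 47 kept their calls without any 1 library, 91 with the Y-linked score, 33 without the code, 192 in DESeq2 and 193 in limma-voom. The causes were not tested. No paired analysis was possible because the groups share no title number. A gene at 1 CPM rests on 19 to 29 counts, which limits the lowest genes.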
